A study of Mus musculus with 10 samples.

Results

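The genes described here encode glycosyltransferases of the Golgi, the enzymes that build sugar chains on secreted and surface proteins and on lipids. Members were all genes with a symbol of the Galnt, B3gnt, B4galt, B3galt, Gcnt, Mgat, Fut, St3gal, St6gal or St6galnac series followed by a number. There were 72 such genes of 24605 in the table, and 51 of them passed the filter for testing, at least 1 FPKM in at least 2 libraries, with 12504 genes passing in all. FPKM is the number of sequenced fragments per kilobase of a transcript's length and per unit of library depth, so levels can be set side by side between genes.

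RNA was sequenced from prostate cells of C57BL/6 mice, 8 to 12 weeks old, that had been separated by flow cytometry. The labels name no allele or treatment that differs between the groups. Antibodies to lineage markers (Lin), CD24, CD49f (integrin alpha 6) and Sca-1 defined the gates. Luminal cells were Lin-, CD24 high and CD49f low, and gave 3 libraries of the Sca-1- fraction and 3 of the Sca-1+ fraction. Basal cells were Lin-, CD24 low and CD49f high (2 libraries), and stromal cells were negative for Lin, CD24 and CD49f (2 libraries). A growth protocol given for every library describes plating in a medium with serum and dihydrotestosterone, and it is not stated whether the sorted cells had been through it. Neither replicate numbers nor separate animals are recorded in the labels. Replicates are therefore numbered here in the order of listing, which pairs nothing between groups, and p-values measure the spread between these libraries, which may be technical.

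Depth was 20.2 to 27.1 M (mega) mapped fragments per library, as read from the steps between low values, so that 1 FPKM on a transcript of 3000 nt rests on 61 to 81 fragments. Krt5, a basal keratin, was at 382 and 535 FPKM in basal libraries and at most 20.0 elsewhere. Cd24a, the gene of the sorting antigen CD24, was at 529 to 838 FPKM across the Sca-1- luminal gate, 226 and 199 in the basal pair and 25.2 and 57.0 in the stromal pair. It was at 197, 412 and 1090 FPKM across the Sca-1+ luminal replicates 1, 2 and 3, so that replicate 1 of this CD24 high gate lay below both CD24 low basal libraries. The Sca-1+ luminal libraries stood apart from each other in other markers too. The summed level of 12 of 12 fibroblast markers was 5640, 2870 and 413 FPKM in replicates 1, 2 and 3, while it ranged over 79.7 to 142 for the Sca-1- gate, 520 to 704 for basal cells and 6110 to 7900 for stroma. Dcn carried much of these sums, at 3260, 1630 and 233 FPKM in the same 3 replicates and 655 and 459 in basal libraries. Col1a1 was 360, 190 and 22.4 FPKM in the same 3 replicates and 317 and 314 in stromal libraries. It was 7.16 and 8.77 FPKM in basal libraries and 3.42, 1.67 and 5.68 in Sca-1- luminal libraries. Replicate 3 was thus below basal libraries in Dcn and above them in Col1a1, and it was not free of fibroblast markers. The summed level of 8 proximal luminal markers ran the other way, at 1830, 4260 and 9380 FPKM in replicates 1, 2 and 3. Differences between the luminal gates are therefore also shown with replicate 3 alone, in the plot of the luminal gates. That fit has 1 library in the Sca-1+ group and takes the spread from the other groups, assuming that the lone library varies as they do, so its changes are given as a description. The pan-leukocyte gene Ptprc was at most 0.338 FPKM in every library, and Cd52 carried most of the leukocyte sum in luminal libraries, at 96.4 to 492 FPKM.

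Sugar chains of the mucin type start when a Galnt enzyme attaches N-acetylgalactosamine to serine or threonine, while Mgat enzymes branch the chains that are transferred to asparagine in the endoplasmic reticulum. Gcnt enzymes add further branches, B3gnt and B4galt enzymes extend them by alternating N-acetylglucosamine and galactose, and fucosyltransferases (Fut) and sialyltransferases (St3gal, St6gal, St6galnac) add the outer sugars. The prostate epithelium secretes large amounts of glycoprotein into the seminal fluid, and fucosylated blood group structures occur on secretory epithelia.

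Every group expressed a large part of the family, and the leading enzymes differed between the gates. Members at 1 FPKM or more numbered 34 to 35 in Sca-1- luminal, 39 to 48 in Sca-1+ luminal, 34 to 36 in basal and 40 to 41 in stromal libraries. Their summed level was 398, 344 and 440 FPKM across the Sca-1- luminal replicates 1, 2 and 3, and 614, 559 and 560 FPKM in the Sca-1+ replicates. It was 503 and 511 FPKM in the basal pair and 480 and 641 in the stromal pair. The 3 Sca-1- luminal libraries had the lowest sums, and the stromal libraries spanned the basal and Sca-1+ luminal ones. All genes together summed to 612159 to 629156 FPKM for the Sca-1- luminal gate and to 365350 to 448330 in the other libraries. The part of this difference in the members' sums was not tested. Of the 51 tested members, the highest group mean was in Sca-1- luminal for 12, in Sca-1+ luminal for 13, in basal for 7 and in stromal libraries for 19.

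**Figure D1:**
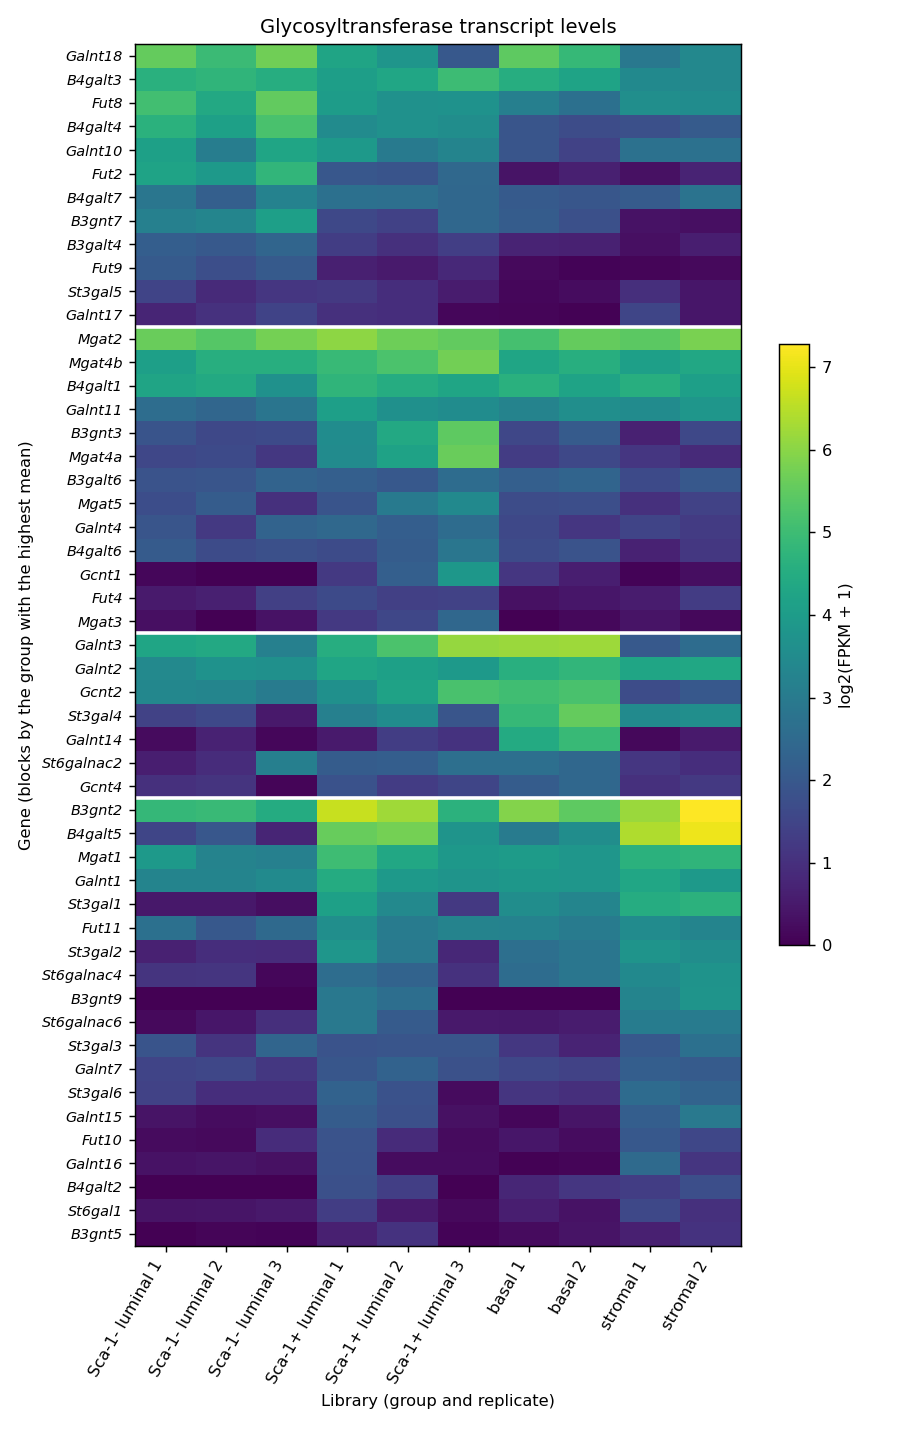
Heat map of log2(FPKM + 1) for the 51 tested members (rows) in the 10 libraries (columns), in blocks by the group with the highest mean. Mgat2 and B4galt1 are bright in every column, whereas Fut2 and Galnt14 are brightest in the columns of single groups.

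Between the Sca-1+ and Sca-1- luminal gates, members of every subfamily except St6gal were called. The sole St6galnac call, of St6galnac4, was lost under both scalings. Of the 51 tested members 18 were higher and 7 lower on the Sca-1+ side, 49.0% of the members, where 35.4% of all genes tested were called (limma, Benjamini-Hochberg adjusted p under 0.05), 21.9% higher and 13.4% lower. The branching enzyme Mgat4a and the extending enzymes B4galt5 and B3gnt3 were higher, and the fucosyltransferases Fut2 and Fut8 were lower. The median log2 change was 0.63 for the members and 0.19 for all genes tested. The split of 18 higher to 7 lower depended on scaling. For counts under other settings, here and below, the share of all genes called is not given. They describe the members and do not show a change particular to them. Median-of-ratios scaling, which moved the median of all genes by -0.17, gave 10 higher and 7 lower, and quantile normalization, which moved it by -0.24, gave 9 and 7. The count of 25 became 15 without Sca-1+ replicate 2, 16 without Sca-1- replicate 3 and 31 without Sca-1+ replicate 3, and with Sca-1+ replicate 3 as the sole library of its group it was 11.

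Basal libraries differed from Sca-1- luminal libraries in 19 members, 11 higher and 8 lower, which is 37.3% of the members beside 46.2% of all genes tested (20.2% higher and 26% lower). The higher members were 4 Galnt genes, 3 St3gal genes, Gcnt2, Gcnt4, B4galt5 and St6galnac4. The lower members were Fut2, Fut8, Fut9, B4galt4, B3gnt7, B3galt4, Galnt10 and St3gal5. The median log2 change was 0.01 for the members and -0.05 for all genes.

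Basal and Sca-1+ luminal libraries differed in 9 members, 2 higher and 7 lower in basal, which is 17.6% of the members beside 19.8% of all genes, 4.38% higher and 15.4% lower. Galnt14 and St3gal4 were higher in basal libraries, and Mgat4a, B3gnt3, B4galt4, Galnt10, Mgat3, Fut2 and Fut4 were lower. The median log2 change was -0.51 for the members and -0.29 for all genes, and median-of-ratios scaling, which moved the latter by 0.27, gave 4 higher and 7 lower. Quantile normalization moved it by 0.34 and gave 5 and 6. The count of 9 became 4 without basal replicate 1, 3 without basal replicate 2 and 18 without Sca-1+ luminal replicate 3.

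Stromal libraries differed from the mean of the 3 epithelial groups in 21 members, 8 higher and 13 lower, which is 41.2% of the members beside 34.3% of all genes (15.8% higher and 18.5% lower). B4galt5, B3gnt9, St3gal1, St6galnac6, Galnt15, St6galnac4, Galnt16 and Fut10 were higher. Galnt3, Gcnt2, B3gnt7, Fut2 and Galnt14 led the lower members. The stromal mean of Galnt14 (0.277 FPKM) was near that of Sca-1- luminal libraries (0.29), and the basal mean was 25.1. For Fut2 the stromal mean (0.463 FPKM) was near the basal one (0.419), and the Sca-1- luminal mean was 19.5. Lower than the epithelial mean is thus not lower than each epithelial group. The median log2 change was -0.01 for the members and -0.12 for all genes. Median-of-ratios scaling gave 14 higher and 13 lower, and quantile normalization 12 and 13. The count of 21 became 7 without stromal replicate 1 and 9 without stromal replicate 2. The 4 comparisons share libraries, so calls in one are not independent of calls in another. Of the tested members 8 would not have passed the filter without 1 of the groups, namely Mgat3 and Gcnt1 (Sca-1+ luminal), Fut9 and St3gal5 (Sca-1- luminal), Fut10, Galnt16 and St6gal1 (stromal) and B3gnt5 (Sca-1+ luminal or stromal). Passing only where a gene is high favours a call without forcing it, and B3gnt5 and St6gal1 were called in no comparison. The calls among all 8 numbered 3, 2, 1 and 3 in the 4 comparisons in the order given above. These calls support nothing, and the levels of the 8 are given as a description. In sorted bulk RNA, fewer cells of a type and less RNA per cell cannot be told apart.

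The Galnt genes, which start mucin-type chains, were used in different combinations by the gates, with Galnt3, Galnt18, Galnt14 and Galnt2 the most abundant in basal libraries. Their summed level was 88.3 to 115 FPKM for the Sca-1- luminal gate, 112 to 127 in Sca-1+ luminal, 186 to 187 in basal and 78.7 to 80.2 in stromal libraries. Galnt14 (chromosome 17, 73493751 to 73710451, mm10) was at 21.0 and 29.1 FPKM in basal replicates 1 and 2. It was at 0.159, 0.619 and 0.0929 FPKM for the Sca-1- luminal gate, 0.446, 1.52 and 1.11 in Sca-1+ luminal and 0.104 and 0.45 in stromal libraries. Both basal libraries lay above all 8 others, which held little of the transcript. The log2 change of Galnt14 in basal libraries was 4.34 against Sca-1- luminal (SE 0.311, adjusted p = 1.81e-05) and 3.71 against Sca-1+ luminal (SE 0.311, adjusted p = 0.000216), by limma with Benjamini-Hochberg adjustment. Both calls held in every setting tried.

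Galnt3, best known for the glycosylation of the phosphate hormone FGF23, was the Galnt gene with the highest mean over all libraries. It was at 18.4, 19.8 and 7.99 FPKM across the Sca-1- luminal replicates, 22.1, 36.1 and 68.3 in Sca-1+ luminal, 71.1 and 72.6 in the basal pair and 3.1 and 4.9 in the stromal pair. The stromal libraries were the lowest and the basal libraries the highest, and Sca-1+ replicate 3 came close to basal. Its log2 change came to 2.24 in basal against Sca-1- luminal (SE 0.48, adjusted p = 0.00422) and -2.84 in stromal libraries (SE 0.417, adjusted p = 0.00151). Between the luminal gates it was 1.34 (SE 0.429, adjusted p = 0.0367), a call lost in 10 of 17 settings, among them those without either basal replicate, Sca-1- replicate 1 or 3, or Sca-1+ replicate 2 or 3.

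Galnt18, whose product has little transferase activity of its own, was high in gates at opposite ends of the epithelium. It was at 45.8, 29.9 and 51.4 FPKM for the Sca-1- luminal gate and 43.2 and 28.3 in basal libraries. It was at 18.0, 13.0 and 2.99 FPKM for the Sca-1+ luminal gate and 6.55 and 9.48 in stromal libraries. No Sca-1+ or stromal library reached the lowest Sca-1- luminal or basal value, and Sca-1+ replicate 3 was the lowest of all. The fitted log2 change was -2.05 in Sca-1+ against Sca-1- luminal (SE 0.513, adjusted p = 0.0145), a call lost without Sca-1- replicate 3 (adjusted p = 0.0548). In basal against Sca-1+ luminal libraries it was 1.82 (adjusted p = 0.0517).

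Galnt10, which prefers peptides that already carry a sugar, was at 16.7, 7.45 and 18.3 FPKM for the Sca-1- luminal gate, 14.2, 6.89 and 8.82 in Sca-1+ luminal, 2.78 and 1.7 in the basal pair and 5.61 and 5.62 in the stromal pair. The luminal groups overlapped, and both basal libraries were below every other. Its log2 change in basal libraries was -2.15 against Sca-1- luminal (SE 0.402, adjusted p = 0.00203) and -1.72 against Sca-1+ luminal (SE 0.402, adjusted p = 0.0167). The second call was lost without either basal replicate and also with Sca-1+ replicate 3 alone. Galnt15 was at 3.48 and 6.66 FPKM in stromal libraries, 3.31, 2.45 and 0.265 in Sca-1+ luminal and at most 0.332 in Sca-1- luminal and basal libraries. Stromal libraries and Sca-1+ replicates 1 and 2 were high, and Sca-1+ replicate 3 was as low as the remaining epithelial libraries. The stromal log2 change was 1.89 (SE 0.405, adjusted p = 0.00716), lost without stromal replicate 2 (adjusted p = 0.0921).

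The broadly expressed Galnt1, Galnt2, Galnt7 and Galnt11 changed less. Between the luminal gates their log2 changes were 0.72, 0.53, 0.62 and 1.15, all called higher in Sca-1+ libraries with adjusted p of 0.00592 to 0.0471. The calls of Galnt1, Galnt2 and Galnt7 were lost in 11 to 14 of 17 settings, for all 3 without any one of the basal, Sca-1- luminal or first 2 Sca-1+ luminal libraries and for Galnt2 and Galnt7 also without either stromal library, and that of Galnt11 in the setting with Sca-1+ replicate 3 alone. In basal against Sca-1- luminal libraries Galnt2 and Galnt11 were higher by 1.09 and 0.81 (adjusted p = 0.00199 and 0.0277), the latter lost without either basal replicate or Sca-1- replicate 1 or 2. Galnt16 was at 4.74 and 1.17 FPKM in the stromal pair, 2.54 in Sca-1+ replicate 1 and at most 0.328 in the other 7 libraries. Galnt4 and Galnt17 were not called in any comparison. The transcript of Galnt4 overlaps Poc1b on the same strand, so its level is uncertain.

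**Figure D2:**
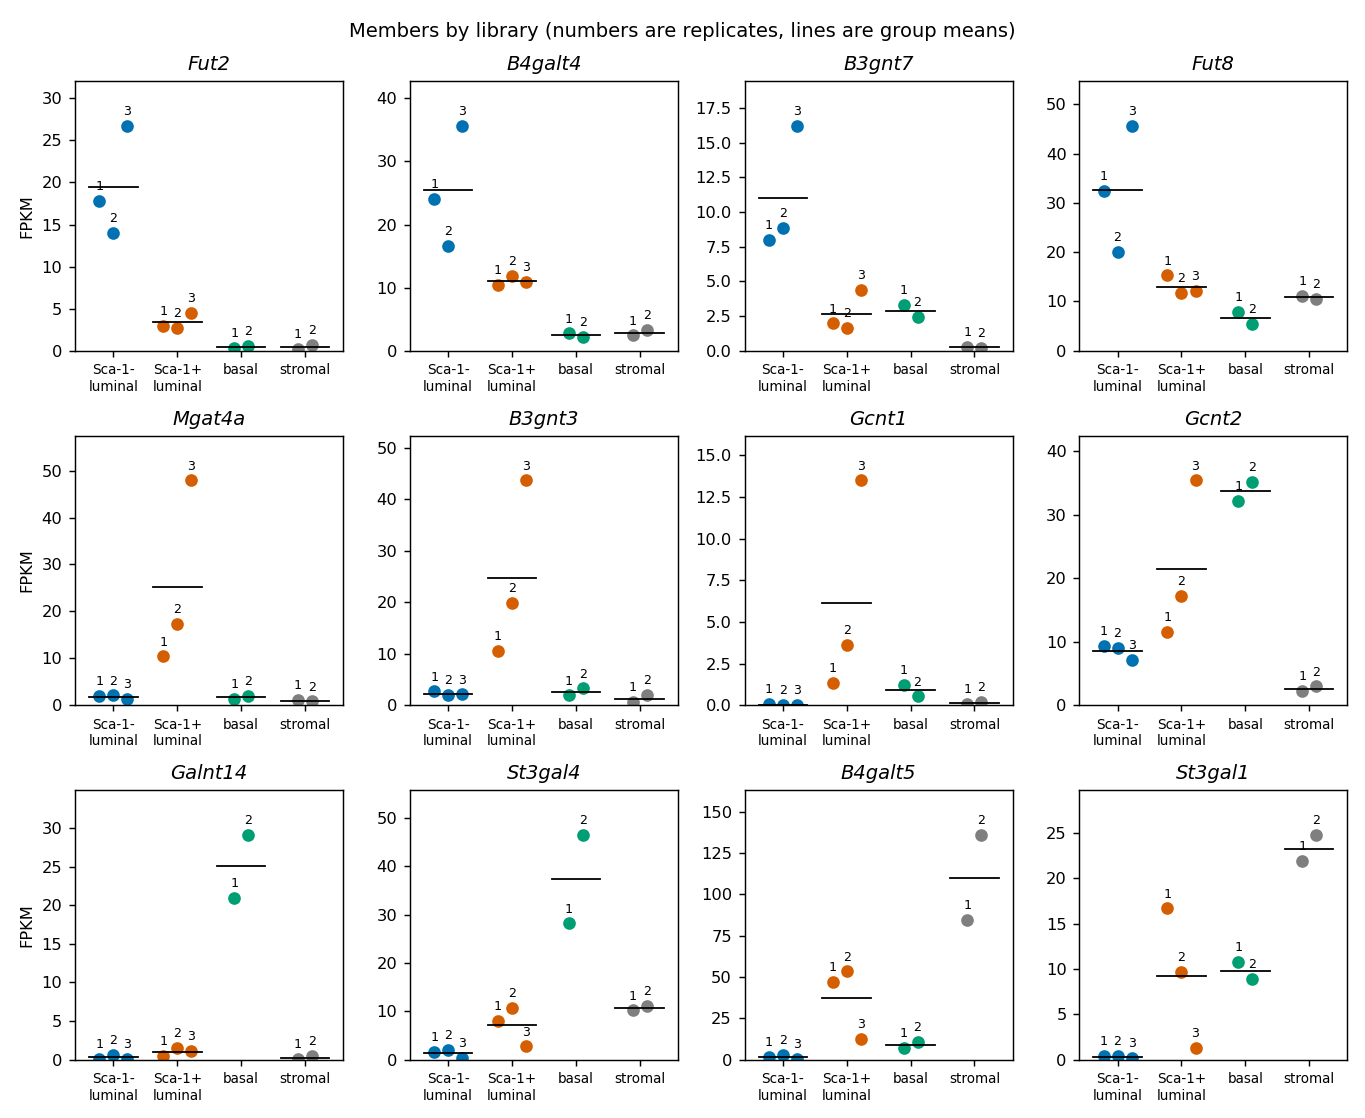
FPKM per library (points, numbered by replicate) and group means (lines) for 12 members, 1 panel each, on axes that start at 0. Fut2, B4galt4, B3gnt7 and Fut8 are highest in Sca-1- luminal libraries, Mgat4a, B3gnt3 and Gcnt1 in Sca-1+ luminal replicate 3, Galnt14 and St3gal4 in basal libraries, and B4galt5 and St3gal1 in stromal libraries.

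Gcnt2, which makes the branch that turns linear i antigen into branched I antigen, was abundant in basal cells and low in stroma. It was at 32.2 and 35.2 FPKM in basal, 11.6, 17.2 and 35.4 in Sca-1+ luminal, 9.39, 8.98 and 7.08 in Sca-1- luminal and 2.21 and 2.98 in stromal libraries. Basal libraries and Sca-1+ replicate 3 were high, and the stromal values lay below all epithelial ones. On the log2 scale the change was 1.88 in basal against Sca-1- luminal (SE 0.385, adjusted p = 0.0034) and -2.39 in stromal libraries (SE 0.335, adjusted p = 0.00129). Between the luminal gates it was 1.11 (SE 0.345, adjusted p = 0.0335), a call lost in 10 of 17 settings (among them those without Sca-1+ replicate 2 or any one of the basal and Sca-1- libraries), and with Sca-1+ replicate 3 alone it was 1.95.

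The gene is transcribed from several start sites, each with its own first exon, and the deposited transcripts placed all of the basal signal at the first of 3. The start at position 40859768 of chromosome 13 carried at least 67.5% of the Gcnt2 level in each library, and all of it in the basal and stromal libraries. The start at 40917634 had 2.98 and 2.3 FPKM across the Sca-1- luminal replicates 1 and 3 and 3.05 FPKM in Sca-1+ replicate 1, and it was listed at 0 in the other 7 libraries. The start at 40886758 was listed at 0 in all 10. Exons that transcripts share were divided between them by the authors' program, so use of a start is an estimate. For Gcnt1 it placed 100% of the level at a start at 17356667 in basal replicate 1 and 100% at 17339505 in basal replicate 2. The 250 bases before each start show how unlike these 3 promoters are (RefSeq, GRCm38.p6, plus strand, 5′ to 3′, with motif matches in capitals).
Gcnt2 first start, chr13:40859518-40859767: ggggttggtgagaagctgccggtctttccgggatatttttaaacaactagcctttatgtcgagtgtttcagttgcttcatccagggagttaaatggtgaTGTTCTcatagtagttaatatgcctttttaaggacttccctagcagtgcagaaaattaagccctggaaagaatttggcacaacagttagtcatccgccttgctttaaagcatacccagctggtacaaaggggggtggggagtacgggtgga
Gcnt2 middle start, chr13:40886508-40886757: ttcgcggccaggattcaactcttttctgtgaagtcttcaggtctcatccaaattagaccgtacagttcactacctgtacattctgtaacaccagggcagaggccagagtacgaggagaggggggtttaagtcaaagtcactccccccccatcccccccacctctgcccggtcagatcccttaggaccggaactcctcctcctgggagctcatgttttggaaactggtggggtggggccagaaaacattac
Gcnt2 last start, chr13:40917384-40917633: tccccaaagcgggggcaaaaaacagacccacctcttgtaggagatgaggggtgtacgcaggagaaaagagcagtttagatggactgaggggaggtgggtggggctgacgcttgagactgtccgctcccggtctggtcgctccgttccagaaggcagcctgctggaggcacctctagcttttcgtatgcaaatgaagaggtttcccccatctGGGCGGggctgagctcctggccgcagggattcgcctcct
The motifs searched on both strands were the GC box GGGCGG, the TATA box TATAAA, the CCAAT box CCAAT, the AP-1 site TGANTCA and the androgen receptor half-site AGAACA. They occur in 32.7%, 12.4%, 33.8%, 6.75% and 16.1% of 32851 mouse promoters of the same length. The first window holds 1 androgen receptor half-site, read on the minus strand, the middle one none of the motifs, and the last 1 GC box. GC content was 45.6%, 54.0% and 59.6% beside a median of 52.4% over all promoters, and CpG dinucleotides numbered 5, 6 and 11 beside a median of 6. A match is a description of letters and not evidence of binding.

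Gcnt1, which makes the branched O-glycan that carries selectin ligands on leukocytes, was low outside the Sca-1+ luminal gate. It was at 1.33, 3.64 and 13.5 FPKM across the Sca-1+ luminal replicates 1, 2 and 3, and it was at 0.0908, 0 and 0.0123 in Sca-1- luminal libraries. It was at 1.24 and 0.532 FPKM in the basal pair and 0.0563 and 0.215 in the stromal pair. Each Sca-1+ library exceeded every other library, although replicate 1 did so only narrowly over basal replicate 1. The fitted log2 change between the luminal gates was 2.38, with no test given because the gene passed the filter through the Sca-1+ gate. The 8 leukocyte markers summed to 187, 345 and 202 FPKM in these replicates, to 105 to 499 without Sca-1 and to 7.35 to 16.6 in the basal and stromal libraries. Cd52 made up 172, 334 and 191 FPKM of the Sca-1+ sums, Lyz2 was at 8.06, 5.46 and 4.56, Ptprc was at 0.191, 0.0197 and 0.129, and Cd3e was listed at 0. The part of leukocyte RNA in the Gcnt1 values was not tested. Gcnt4 was higher in basal than in Sca-1- luminal libraries by 1.53 (adjusted p = 0.0045), at 3.32 and 4.39 against 0.0619 to 1.15 FPKM.

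Of the 6 tested Mgat genes, 4 were higher and none lower with the Sca-1+ luminal gate (2 and none under both scalings), where 21.9% of all genes were higher. Both the 4 and the 2 include Mgat3, which passed the filter only through that gate, so its call supports nothing. The other gene of the 2 was Mgat4a. No Mgat gene was called in basal against Sca-1- luminal libraries. The summed level of the Mgat members was 132 to 173 FPKM across the Sca-1+ luminal libraries and 71 to 105 in all others. Mgat2, needed for complex-type chains, was at 48.0, 40.3 and 53.2 FPKM for the Sca-1- luminal gate and 64.3, 50.1 and 45.3 in Sca-1+ luminal libraries, and at 34.0 and 45.7 in the basal pair and 42.2 and 55.6 in the stromal pair. All 4 groups overlapped, and no comparison called it. Between the luminal gates its log2 change was 0.17 (adjusted p = 0.583), and the sign turned under median-of-ratios scaling.

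Mgat4a (chromosome 1, 37439340 to 37541016), which adds a branch to complex-type chains and in the pancreas acts on a glucose transporter, was high in the Sca-1+ luminal gate and low elsewhere. It was at 10.4, 17.4 and 47.9 FPKM across the Sca-1+ luminal replicates, 1.93, 2.1 and 1.27 in Sca-1- luminal, 1.44 and 1.97 in the basal pair and 1.21 and 0.81 in the stromal pair. The lowest Sca-1+ value was several times the highest value elsewhere, and replicate 3 was the highest. By limma, the log2 change was 2.99 against Sca-1- luminal (SE 0.452, adjusted p = 0.0017), and basal libraries were lower than Sca-1+ luminal by a log2 change of -3.01 (SE 0.505, adjusted p = 0.00405). Both calls held in every setting tried, and with replicate 3 alone the first was 4.16. In stromal libraries against the epithelial mean it was -1.44 (adjusted p = 0.0305), a call lost in 6 settings, among them the comparison with basal and Sca-1- luminal libraries only and those without either stromal replicate, basal replicate 2 or Sca-1- replicate 1.

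The deposited transcripts placed its Sca-1+ level at a pair of listed starts on the minus strand, with the distal one in the lead in every library. The start at 37541016 carried 58.6%, 70.2% and 72.2% of the level in Sca-1+ replicates 1, 2 and 3 and 68.5% to 81.3% in Sca-1- luminal libraries. The start at 37536404 carried the remainder. As for Gcnt2, this division is an estimate. Whether 37536404 is a start of transcription or the edge of an incomplete transcript was not tested, so its window may not be a promoter. The 250 bases before each differ in CpG content (RefSeq, GRCm38.p6, minus strand, 5′ to 3′, matches to the same motifs in capitals).
Mgat4a first start, chr1:37541017-37541266: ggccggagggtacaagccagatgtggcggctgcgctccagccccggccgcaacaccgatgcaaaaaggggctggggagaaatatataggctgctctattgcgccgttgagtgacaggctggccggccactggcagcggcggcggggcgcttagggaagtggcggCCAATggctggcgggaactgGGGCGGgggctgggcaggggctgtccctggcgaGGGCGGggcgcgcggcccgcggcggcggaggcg
Mgat4a second start, chr1:37536405-37536654: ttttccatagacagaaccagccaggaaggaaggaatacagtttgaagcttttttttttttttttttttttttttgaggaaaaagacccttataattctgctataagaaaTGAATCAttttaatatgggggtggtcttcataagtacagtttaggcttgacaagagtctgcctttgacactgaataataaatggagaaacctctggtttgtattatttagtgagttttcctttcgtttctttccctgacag
The first window has a GC content of 72.4%, 26 CpG dinucleotides, 2 GC boxes and 1 CCAAT box. The second has a GC content of 33.6%, 1 CpG and 1 AP-1 site. The FPKM at both starts was highest in Sca-1+ luminal replicate 3, at 34.6 and 13.3.

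**Figure D3:**
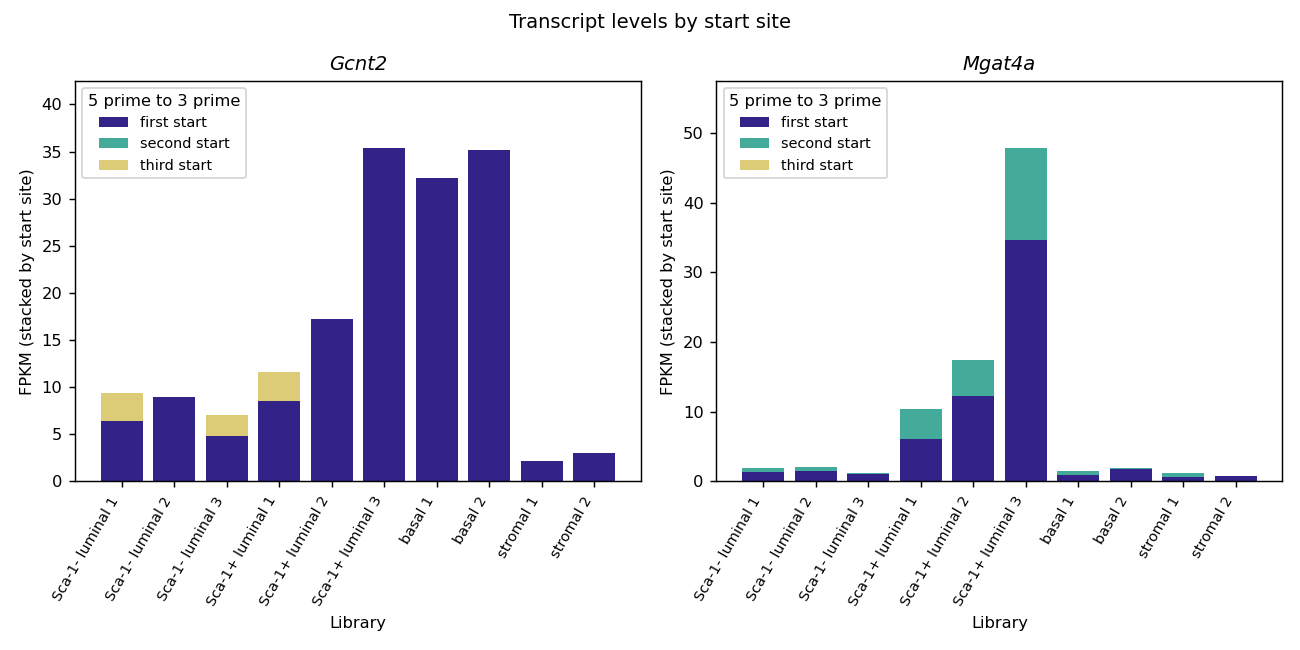
FPKM of Gcnt2 and Mgat4a per library, stacked by transcript start site. In basal libraries the estimate places all of Gcnt2 at its first start, and both listed Mgat4a starts are highest in Sca-1+ luminal replicate 3.

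Mgat3, which adds the bisecting N-acetylglucosamine, was at 1.33, 1.92 and 4.43 FPKM across the Sca-1+ luminal libraries and at most 0.292 in the other 7. The Sca-1+ values lay above all others, and no library outside that gate reached the filter's 1 FPKM. The fitted log2 change was 1.51 against Sca-1- luminal, given as a description. Mgat1, which opens the way to hybrid and complex chains, and Mgat4b were higher in Sca-1+ luminal libraries by 0.97 and 0.86 (adjusted p = 0.0346 and 0.0263). The call of Mgat1 was lost in 11 settings, including without either basal replicate, Sca-1+ replicate 1 or 2, or Sca-1- replicate 2 or 3. That of Mgat4b was lost in 7, including without Sca-1- replicate 1 or 3 or Sca-1+ replicate 2 or 3. Mgat5, which makes a further branch, was not called (log2 change 1.15, adjusted p = 0.0544).

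Chain extension differed by enzyme, with B3gnt3 in Sca-1+ luminal, B3gnt7 in Sca-1- luminal and B4galt5 in stromal libraries. B3gnt3 (chromosome 8, 71691720 to 71703534), which extends O-glycans, was at 10.6, 19.9 and 43.7 FPKM across the Sca-1+ luminal replicates and 2.69, 1.98 and 2.1 in Sca-1- luminal. It was at 1.91 and 3.28 FPKM in the basal pair and 0.6 and 1.99 in the stromal pair. All Sca-1+ values lay above all others. Its log2 change came to 2.77 against Sca-1- luminal (SE 0.454, adjusted p = 0.00242), and 3.79 with replicate 3 alone. Basal libraries were at -2.65 against Sca-1+ luminal (adjusted p = 0.00716), lost without basal replicate 1 (adjusted p = 0.0715), and stromal libraries at -1.53 against the epithelial mean (adjusted p = 0.0244), lost in 5 settings, including without either stromal replicate or basal replicate 2.

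B3gnt7, which acts in keratan sulfate synthesis, was at 8.01, 8.87 and 16.2 FPKM for the Sca-1- luminal gate and 1.97, 1.63 and 4.41 in Sca-1+ luminal libraries. It was at 3.3 and 2.43 FPKM in the basal pair and 0.289 and 0.222 in the stromal pair. Sca-1- luminal libraries were the highest, stromal libraries the lowest, and the basal and Sca-1+ values overlapped. The fitted log2 change was -1.73 in Sca-1+ against Sca-1- luminal (SE 0.337, adjusted p = 0.00528), -1.58 in basal against Sca-1- luminal (SE 0.377, adjusted p = 0.00726) and -2.10 in stromal libraries (SE 0.328, adjusted p = 0.00197). The first was lost with Sca-1+ replicate 3 alone (adjusted p = 0.0992) and the second without basal replicate 2 (adjusted p = 0.0625).

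B3gnt2, the main enzyme of polylactosamine synthesis, had the highest level of its subfamily. It was at 27.6, 29.6 and 21.2 FPKM for the Sca-1- luminal gate, 99.7, 74.3 and 24.4 in Sca-1+ luminal, 60.3 and 43.3 in the basal pair and 72.3 and 154 in the stromal pair. Sca-1+ replicate 3 lay among the Sca-1- luminal libraries and the 2 others among the stromal ones. No comparison called it. Its log2 change was 1.1 between the luminal gates (adjusted p = 0.101), where it turned to -0.09 with replicate 3 alone, and 1.3 in stromal libraries (adjusted p = 0.057). B3gnt9 was at 8.74 and 12.7 FPKM in stromal libraries and 6.55 and 5.23 in Sca-1+ luminal replicates 1 and 2, and it was listed at 0 in the other 6. It was called higher in stromal libraries (adjusted p = 0.00652) and in the Sca-1+ gate (adjusted p = 0.0452). The latter was lost in 12 settings, including without any one library other than Sca-1+ replicate 3, and the former without either stromal replicate. The gene overlaps D230025D16Rik on the opposite strand, and without a stated strand the reads of the pair cannot be told apart. B3gnt5 was not called.

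B4galt5 (chromosome 2, 167298445 to 167349178), which makes lactosylceramide, was the B4galt gene with the highest mean. It was at 84.5 and 136 FPKM in stromal, 46.9, 53.4 and 12.5 in Sca-1+ luminal, 7.08 and 10.8 in the basal pair and 1.87, 2.95 and 0.681 in Sca-1- luminal libraries. The groups did not overlap, and within the Sca-1+ gate replicate 3 stood near the basal values. On the log2 scale the change was 3.51 in stromal libraries (SE 0.512, adjusted p = 0.00146) and 3.62 between the luminal gates (SE 0.527, adjusted p = 0.0015), and both calls held in every setting tried. With Sca-1+ replicate 3 alone, the difference between the luminal gates was 2.33. It was 1.87 in basal against Sca-1- luminal (adjusted p = 0.0261), lost in 5 settings including without either basal replicate or Sca-1- replicate 1 or 3, and -1.74 in basal against Sca-1+ luminal (adjusted p = 0.0644).

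B4galt4, a galactosyltransferase of N-acetyllactosamine chains, was highest in Sca-1- luminal and lowest in basal and stromal libraries. It was at 24.0, 16.6 and 35.6 FPKM for the Sca-1- luminal gate, 10.4, 11.9 and 10.9 in Sca-1+ luminal, 2.75 and 2.25 in the basal pair and 2.44 and 3.29 in the stromal pair. The luminal groups did not overlap with each other or with the rest, and basal and stromal values overlapped. By limma, the log2 change was -1.07 in Sca-1+ against Sca-1- luminal (SE 0.27, adjusted p = 0.015), -2.86 in basal against Sca-1- luminal (SE 0.302, adjusted p = 9.78e-05) and -1.78 in basal against Sca-1+ luminal (SE 0.302, adjusted p = 0.00424). In stromal libraries it was -1.41 (SE 0.262, adjusted p = 0.00394), lost without stromal replicate 1 (adjusted p = 0.0573). The difference between the luminal gates was lost with Sca-1+ replicate 3 alone (adjusted p = 0.105), and that of basal against Sca-1+ luminal without basal replicate 2 (adjusted p = 0.0536).

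B4galt1, the galactosyltransferase that also takes part in lactose synthesis, was at 11.8 to 26.0 FPKM in all 10 libraries and was not called (0.39 between the luminal gates, adjusted p = 0.258). B4galt3 and B4galt6 were lower in stromal libraries by log2 changes of -1.07 (adjusted p = 0.0089) and -1.0 (adjusted p = 0.0308), the first lost without either stromal replicate and the second in 7 settings, including without any one of the basal and stromal libraries or Sca-1- replicate 1. B4galt3 overlaps Ppox on the opposite strand. B4galt2 and B4galt7 were not called. Among the B3galt genes, B3galt6, an enzyme of the proteoglycan linkage region, was at 2.63, 2.76 and 3.99 FPKM for the Sca-1- luminal gate, 3.61, 2.99 and 4.93 in Sca-1+ luminal, 3.59 and 4.1 in the basal pair and 2.09 and 2.98 in the stromal pair. Its groups overlapped and it was not called. B3galt4, an enzyme of ganglioside synthesis, was at 3.48, 3.1 and 4.15 FPKM for the Sca-1- luminal gate and at most 1.56 elsewhere. Its log2 change was -0.95 in Sca-1+ and -1.50 in basal against Sca-1- luminal libraries (adjusted p = 0.00692 and 0.00061), and -0.92 in stromal libraries (adjusted p = 0.00672). The first was lost with Sca-1+ replicate 3 alone (adjusted p = 0.0689) and the last without stromal replicate 1 (adjusted p = 0.0973).

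Fucosyltransferases were the one subfamily with a higher summed level in every Sca-1- luminal library than in any other, at 40.6 to 83.6 FPKM against 24.7 to 35 in Sca-1+ luminal, 13.9 to 17.5 in basal and 23.8 to 25.5 in stromal libraries. Fut2 (chromosome 7, 45648591 to 45666394), the secretor enzyme that makes the H antigen in epithelia, was at 17.8, 14 and 26.7 FPKM across the Sca-1- luminal libraries. It was at 2.92, 2.74 and 4.52 FPKM for the Sca-1+ luminal gate, 0.294 and 0.543 in the basal pair and 0.265 and 0.661 in the stromal pair. The order was Sca-1- luminal, Sca-1+ luminal, then basal and stromal libraries, which overlapped with each other. The log2 change was -2.20 in Sca-1+ against Sca-1- luminal (SE 0.283, adjusted p = 0.000872), -3.81 in basal against Sca-1- luminal (SE 0.316, adjusted p = 2.92e-05) and -1.77 in stromal libraries (SE 0.275, adjusted p = 0.00189). These 3 calls held in every setting tried, and with Sca-1+ replicate 3 alone the first was -1.85. Basal against Sca-1+ luminal gave -1.61 (SE 0.316, adjusted p = 0.00795), lost without either basal replicate.

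Fut8, which adds fucose to the core of asparagine-linked chains, was at 32.5, 20.1 and 45.6 FPKM for the Sca-1- luminal gate, 15.3, 11.7 and 12.1 in Sca-1+ luminal, 7.88 and 5.44 in the basal pair and 11.2 and 10.6 in the stromal pair. Every Sca-1- luminal value lay above all others. Its log2 change was -1.20 in Sca-1+ and -2.08 in basal against Sca-1- luminal libraries (SE 0.29 and 0.324, adjusted p = 0.0128 and 0.000789). The first was lost with Sca-1+ replicate 3 alone (adjusted p = 0.0747). Fut9, an enzyme of Lewis x synthesis, was at 3.14, 2.39 and 3.2 FPKM across the Sca-1- luminal libraries and at most 0.788 elsewhere. Its fitted log2 changes against that gate were -1.29 with Sca-1 and -1.83 in basal libraries, given as a description because the gene passed the filter through the Sca-1- gate alone.

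Fut4, which also makes Lewis x, was at 2.1, 1.6 and 1.73 FPKM for the Sca-1+ luminal gate, 0.439, 0.558 and 1.62 in Sca-1- luminal, 0.243 and 0.359 in the basal pair and 0.458 and 1.44 in the stromal pair. Sca-1+ luminal libraries were high and basal libraries low, and Sca-1- replicate 3 and stromal replicate 2 lay close to the Sca-1+ values. Its log2 change in basal against Sca-1+ luminal libraries was -1.11 (SE 0.313, adjusted p = 0.0348), lost in 7 settings, including without either basal replicate or Sca-1+ replicate 1 or 2. Fut11 was higher in Sca-1+ luminal libraries by 0.89 (adjusted p = 0.0219), lost in 5 settings, including without Sca-1+ replicate 1 or Sca-1- replicate 2. Fut10 was at 3.04 and 1.95 FPKM in the stromal pair, 2.65 in Sca-1+ replicate 1 and at most 0.898 in the other 7 libraries.

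Of 10 tested sialyltransferases 4 were higher and 1 lower in basal than in Sca-1- luminal libraries, where 20.2% of all genes were higher and 26% lower. The 1 lower was St3gal5, which passed the filter through the Sca-1- gate. In stroma against the epithelial mean 3 were higher and none lower (15.8% and 18.5% of all genes). This stromal count depended on scaling. As reported it held 1 St3gal, no St6gal and 2 St6galnac genes, and under both scalings it held 4, 1 and 2. The summed level of the 6 St3gal genes was 6.27 to 8.88 FPKM for the Sca-1- luminal gate, 8.21 to 45.8 in Sca-1+ luminal, 46.8 to 63.4 in basal and 53.5 to 56.6 in stromal libraries. St3gal4 (chromosome 9, 35046579 to 35116810), which caps N-acetyllactosamine, was at 28.2 and 46.5 FPKM in basal, 10.2 and 11.2 in stromal, 8.08, 10.7 and 2.75 in Sca-1+ luminal and 1.68, 2.06 and 0.401 in Sca-1- luminal libraries. Both basal values lay above all others. The log2 change in basal libraries was 4.04 against Sca-1- luminal (SE 0.501, adjusted p = 0.000226) and 2.34 against Sca-1+ luminal (SE 0.501, adjusted p = 0.0118), lost without basal replicate 2 (adjusted p = 0.119). Between the luminal gates it was 1.71 (adjusted p = 0.0178), lost in 4 settings, including without Sca-1+ replicate 1 or 2 or Sca-1- replicate 3.

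St3gal1, which caps the T antigen of mucin-type chains, was at 21.9 and 24.8 FPKM in stromal, 16.7, 9.71 and 1.33 in Sca-1+ luminal, 10.8 and 8.91 in the basal pair and 0.38, 0.384 and 0.194 in Sca-1- luminal libraries. Stromal values were the highest and Sca-1- luminal values the lowest. Its log2 change came to 2.35 in stromal libraries (SE 0.582, adjusted p = 0.0132), 3.04 in basal against Sca-1- luminal (SE 0.67, adjusted p = 0.00492) and 2.53 between the luminal gates (SE 0.599, adjusted p = 0.0118). The last was lost with Sca-1+ replicate 3 alone (adjusted p = 0.0862) and the first without either stromal replicate. St3gal2, which acts on the same structure, was at 12.6 and 10.8 FPKM in stromal, 13.2, 6.71 and 0.748 in Sca-1+ luminal, 5.3 and 6.25 in the basal pair and 0.581, 0.952 and 0.897 in Sca-1- luminal libraries. Sca-1+ replicate 3 lay within the range of the Sca-1- luminal libraries. The call in basal against Sca-1- luminal libraries (log2 change 1.91, adjusted p = 0.0442) was lost in 9 settings, including without any one library other than Sca-1+ replicates 1 and 3, and the luminal gates differed by 1.68 (adjusted p = 0.0574). St3gal5, the GM3 synthase, was at 1.83, 0.816 and 1.2 FPKM without Sca-1, 0.103 and 0.174 in the basal pair and 0.348 to 1.33 elsewhere. Its fitted log2 change in basal libraries was -0.98, a call that rests on passing the filter through the Sca-1- gate. St3gal3 and St3gal6 were not called. Their means were 2.68 and 1.19 FPKM without Sca-1, 2.72 and 2.19 with it and 0.956 and 1.07 in basal libraries. The stromal means were the highest, at 4.23 and 4.43 FPKM (limma log2 changes 0.81 and 1.24, adjusted p = 0.081 and 0.055).

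St6gal1, the enzyme of terminal sialic acid on asparagine-linked chains, was at 0.302, 0.342 and 0.412 FPKM for the Sca-1- luminal gate, 1.48, 0.432 and 0.147 in Sca-1+ luminal, 0.526 and 0.278 in the basal pair and 1.96 and 1.01 in the stromal pair. It was low in all gates and not called, although both scalings called it higher in stroma, the gate through which it passed the filter. St6galnac4, which adds a sialic acid to chains already capped by an St3gal enzyme, was at 10.0 and 12.4 FPKM in stromal, 4.96 and 6.2 in basal, 5.11, 4.01 and 1.07 in Sca-1+ luminal and 1.12, 1.18 and 0.101 in Sca-1- luminal libraries. Stromal values were the highest and did not overlap with others. The fitted log2 change was 1.77 in stromal libraries (SE 0.408, adjusted p = 0.0097), lost without either stromal replicate, and 1.93 in basal against Sca-1- luminal (SE 0.469, adjusted p = 0.00807), lost without basal replicate 2 (adjusted p = 0.0603). The call between the luminal gates (1.21, adjusted p = 0.0481) was lost in 15 of 17 settings, including without any one library other than Sca-1+ replicate 3.

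St6galnac6, an enzyme of ganglioside sialylation, was at 7.27 and 7.14 FPKM in stromal, 6.67, 3.27 and 0.406 in Sca-1+ luminal, 0.132, 0.361 and 0.989 in Sca-1- luminal and 0.379 and 0.469 in basal libraries. Stromal libraries and Sca-1+ replicates 1 and 2 were high. The stromal log2 change was 2.07 (SE 0.502, adjusted p = 0.0121), lost without either stromal replicate. St6galnac4 and St6galnac6 are neighbours on chromosome 2, the first ending at 32599696 and the second starting at 32599709, so reads near that boundary may be shared. St6galnac2 was not called, and Sca-1- replicate 3 held 7.88 FPKM of it against 0.523 and 0.892 in the other replicates of its group. It overlaps 1810032O08Rik, whose mean was 15.4 FPKM.

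The 18 members called higher in Sca-1+ luminal libraries fell into sets that ran in opposite directions within that gate. For 7 of them (Mgat4a, B3gnt3, Gcnt1, Galnt3, Gcnt2, Mgat3 and Mgat4b) replicate 3 was the highest Sca-1+ library, and for none of these did the stromal mean exceed the Sca-1+ mean. For 10 (B4galt5, St3gal1, St3gal4, B3gnt9, St6galnac4, Galnt1, Galnt2, Galnt7, Galnt11 and Mgat1) replicate 3 was the lowest, and the stromal mean exceeded the Sca-1+ mean for 9. Fut11 was the remaining member, with replicate 2 the lowest. These sets were formed from the same values, so the order is a description. The summed fibroblast markers were 413 FPKM in replicate 3 against 5640 and 2870 in replicates 1 and 2. Smooth muscle markers summed to 34.1 FPKM against 331 and 433, beside 278 to 362 in basal and 216 to 372 in stromal libraries. Endothelial markers summed to 5.48 FPKM against 31.8 and 22.3. The part of RNA from such cells in the members' values was not tested. With replicate 3 alone, 3 of the 7 lower members were called, Fut2, Fut9 and Galnt18.

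**Figure D4:**
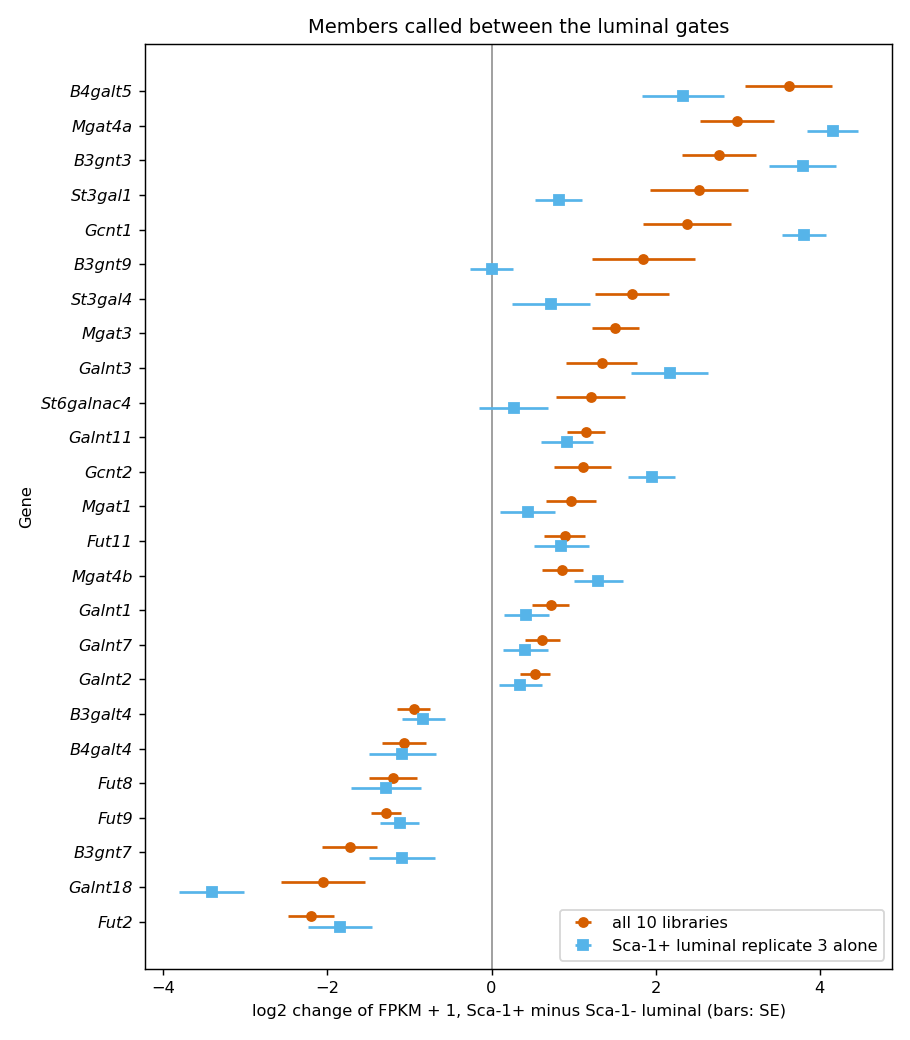
Log2 change of FPKM + 1 (points) with SE (bars) in Sca-1+ against Sca-1- luminal libraries for the 25 called members, with all 10 libraries and with Sca-1+ luminal replicate 3 as the sole library of its group. Mgat4a moves from 2.99 to 4.16 and B4galt5 from 3.62 to 2.33, and Mgat3 has no second point because it did not pass the filter there.

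The other 21 members did not pass the filter. They were B3galt1, B3galt2, B3galt5, B3gnt4, B3gnt6, B3gnt8, Fut1, Fut7, Galnt5, Galnt6, Galnt9, Galnt12, Galnt13, Gcnt3, Gcnt7, Mgat4c, Mgat5b, St6gal2, St6galnac1, St6galnac3 and St6galnac5. The highest value among them in any library was 1.39 FPKM, for B3galt2 in Sca-1+ luminal replicate 3, and B3gnt4 was listed at 0 in all 10. Fut1, the other H antigen enzyme, and Fut7, which completes selectin ligands, are in this set.

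Among the lists of genes that supply or surround these enzymes, the oligosaccharyltransferase had the largest share of lower genes in Sca-1+ and in basal against Sca-1- luminal libraries. All 12 subunits listed for the oligosaccharyltransferase, which attaches asparagine-linked chains in the endoplasmic reticulum, were tested, and 9 were lower and none higher with Sca-1 than without (median log2 change -1.06, beside 0.19 for all genes, of which 13.4% were lower). In basal against Sca-1- luminal libraries 10 were lower and none higher (median -1.77, beside -0.05 for all genes, of which 26% were lower and 20.2% higher). Krtcap2 was lower by log2 changes of -2.07 and -2.66 in these comparisons, and Ddost by -2.43 in the second. Secretory luminal markers moved with them, their sum being 138000 to 173000 FPKM for the Sca-1- luminal gate and 3100 to 23200 in the other libraries, and their part was not tested.

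The counts just given for the oligosaccharyltransferase were 9 to 10 and 10 under both scalings. Genes that make donor sugars moved in both directions. The shares of all genes given for basal libraries, 26% lower and 20.2% higher, are the background of the counts that follow for that comparison, and 13.4% lower and 21.9% higher that of the counts between the luminal gates. Of 5 genes of sialic acid synthesis, 2 were lower and none higher between the luminal gates, and 1 was higher and 3 lower in basal than in Sca-1- luminal libraries, while St3gal1 and St3gal4 were higher there. Nans, the sialic acid synthase, was at 65.3, 67.7 and 73.4 FPKM for the Sca-1- luminal gate and 7.52 and 9.29 in basal libraries (log2 change -2.90, adjusted p = 3.53e-05). Gne, the first enzyme of the pathway, was at 42.4, 27.4 and 41.9 against 5.2 and 4.41 (log2 change -2.70, adjusted p = 6.71e-05). Npl, which breaks sialic acid down, was the higher one, at 4.34 and 3.18 FPKM in basal libraries against 0.133, 0.0347 and 0.214 (log2 change 2.07, adjusted p = 0.000366). Of 4 tested genes of the synthesis of GDP-fucose, the donor of the Fut enzymes, 3 were lower in basal than in Sca-1- luminal libraries and 2 in Sca-1+ luminal, and none was higher. Tsta3, which completes GDP-fucose, was lower by a log2 change of -1.67 in Sca-1+ luminal (adjusted p = 0.000529) and -2.71 in basal libraries (adjusted p = 2.45e-05). Gmds, the enzyme before it, was lower by -2.97 in basal libraries (adjusted p = 0.000961). Between the luminal gates its values overlapped, at 67.0, 56.2 and 70.2 FPKM without Sca-1 and 33.9, 55.6 and 136 with it.

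Of 10 nucleotide sugar transporters, which carry donors into the Golgi, 1 was higher and 6 lower in basal than in Sca-1- luminal libraries, the one higher being Slc35d1 (log2 change 2.22). Slc35d1 was also the one higher between the luminal gates (2.21), where 1 was lower, a count that was 3 under median-of-ratios scaling and 4 under the quantile method. Of 10 genes that supply UDP-galactose and UDP-GalNAc, 2 were higher and 4 lower between the luminal gates and 1 higher and 6 lower in basal against Sca-1- luminal libraries. Galk1, among the 6 lower, was listed at 0 in both basal libraries, which can be a failed estimate. Uap1, which makes UDP-N-acetylglucosamine, was at 28.4, 20.7 and 20.5 FPKM without Sca-1 and 293, 90.9 and 45.6 with it, at 127 and 87.8 in the basal pair and at 529 and 235 in the stromal pair. All values lay above those of the Sca-1- gate. Uap1 was higher by 2.17 between the luminal gates (adjusted p = 0.0198), lost with Sca-1+ replicate 3 alone and without Sca-1- replicate 2 or 3, and by 2.16 in basal libraries (adjusted p = 0.0226), lost in 5 settings, including without either basal replicate or Sca-1- replicate 2 or 3. Pgm2, the other one higher between the luminal gates, changed by 1.52 (adjusted p = 0.00608), lost with Sca-1+ replicate 3 alone. Of 10 mannosidases and glucosidases that trim chains before the Mgat enzymes act, 1 was higher and 5 lower in the latter comparison, and 3 were lower in the former. Man1a was at 181, 133 and 275 FPKM for the Sca-1- luminal gate, 82.7, 44.2 and 37.7 in Sca-1+ luminal and 34.6 and 23.3 in basal libraries. Of 19 genes of Golgi structure, 10 were lower in basal than in Sca-1- luminal libraries and none higher (median -1.12), with Golgb1, a large tether of Golgi membranes, at a log2 change of -3.58 (adjusted p = 0.000661).

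Among 11 tested genes of sugar chain synthesis that lie outside the naming rule, Abo and B4galnt2 had the largest changes. Abo, which adds the blood group sugar to the H antigen made by Fut2, was at 401, 213 and 423 FPKM across the Sca-1- luminal libraries. It was at 63.1, 52.0 and 18.2 FPKM for the Sca-1+ luminal gate, 8.13 and 9.17 in the basal pair and 10.6 and 16.1 in the stromal pair. Sca-1- luminal libraries lay far above all others, as for Fut2. The log2 change of Abo was -3.04 in Sca-1+ (SE 0.446, adjusted p = 0.00152) and -5.11 in basal libraries against Sca-1- luminal (SE 0.499, adjusted p = 6.64e-05). B4galnt2, which makes the Sda antigen, was at 12.5, 14.3 and 27.8 FPKM for the Sca-1+ luminal gate, 2.95, 3.27 and 4.58 in Sca-1- luminal and at most 0.491 in basal and stromal libraries. It was higher by 1.99 between the luminal gates and lower by a log2 change of -3.68 in basal against Sca-1+ luminal libraries, in every setting tried. C1galt1, which makes the T antigen of mucin-type chains, was at 5.99 to 14.4 FPKM in all 10 libraries, and is named here after its values were seen.

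Of 7 tested mucin-type carrier proteins 4 were higher and none lower in the Sca-1+ luminal gate (median log2 change 1.01, beside 0.19 for all genes, of which 21.9% were higher). Muc1 is a member of this list and was at 1.07, 1.53 and 1.33 FPKM across the Sca-1+ luminal libraries and at most 0.379 in the other 7, so it passed the filter through that gate alone. Cd34, also listed, was at 143, 42.7 and 10.0 FPKM in Sca-1+ replicates 1, 2 and 3 and 177 and 124 in stromal libraries. Psca ran the other way, at 465, 1390 and 3360 FPKM in these replicates. Both are named after their values were seen, and the part of fibroblast RNA was not tested. Of the remaining lists, sialidases and sulfotransferases (7 tested), O-fucose and O-glucose enzymes (6 tested) and polysialyltransferases (1 of 6 tested) had at most 2 genes called in either direction in each comparison.

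**Figure D5:**
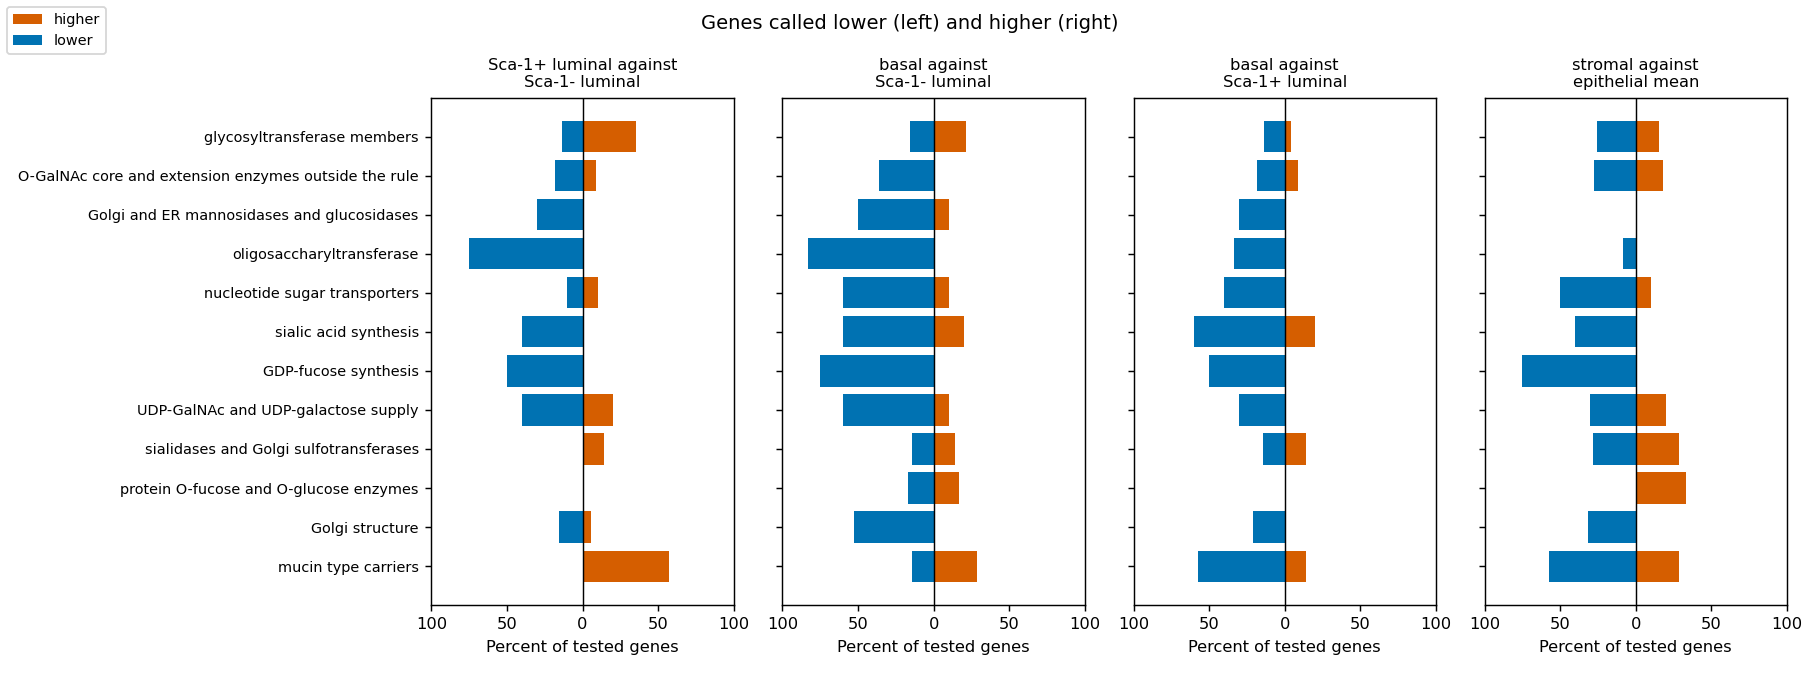
Percent of tested genes called lower (left of 0) and higher (right of 0) in each of the 4 comparisons, for the members and for 11 lists of genes around them. Bars for the oligosaccharyltransferase reach to the left alone in Sca-1+ and basal against Sca-1- luminal libraries, whereas the members have bars on both sides in all 4 panels.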

How the data were processed

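RNA-seq libraries of sorted prostate cells were analysed, 10 in 4 groups taken from the gate in each label. The submitters' processing notes name bcl2fastq 1.8.3, TopHat, Cufflinks and the build mm10; for TopHat and Cufflinks the version is not stated there. Per the labels' protocols, cDNA was made with random and poly(dT) priming, and strand is not stated. The values are FPKM per UCSC transcript, as computed by the authors and deposited, with no gene names. Transcripts (63241) were matched by mm10 locus to GENCODE M21 and RefSeq GRCm38.p6 genes, and 86.0% received a symbol. A match by span needed an overlap of at least 0.5 and a gap of 0.1 to the next gene. Transcripts under 300 nt (8006) and 7 genes with failed estimates were left out, and FPKM was summed per gene. Cufflinks divides reads of overlapping transcripts, so members that overlap other genes are uncertain, and exact zeros can be failed estimates. Such a gene is called listed at 0.

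Depth was read from steps between low values of isolated transcripts, which were whole numbers of fragments for part of the values only, so no count model was used. Comparisons were fitted with limma 3.58.1 (R 4.3.3) to log2(FPKM + 1) with 1 mean per group over all 10 libraries (6 residual degrees of freedom, eBayes with trend), and Benjamini-Hochberg adjustment over all 12504 genes. A gene was called at an adjusted p under 0.05. Log2 changes are on the log2(FPKM + 1) scale and understate those of low genes. The fit was tested on simulated data. Values per library are given for the up to 12 members with the largest change among those called in each comparison and for the highest member of each subfamily, and up to 4 genes are named per list. Other genes given library by library (Fut9, Fut10, Galnt16, St3gal5, B3galt4, B4galt1, Gcnt4, Npl and Pgm2, and genes beside a result) were chosen after their values were seen. The members and lists were chosen with earlier results of these data known. Settings tried were another pseudocount (0.1), no filter, median-of-ratios scaling, quantile normalization, short transcripts kept, only the groups compared, Sca-1+ luminal replicate 3 alone (spread taken from the other groups), stromal against basal and Sca-1- luminal libraries only, and leaving out each library. Python 3.11.15, pandas 2.3.3 and matplotlib 3.10.9 served for tables and plots.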

Additional observations from a re-analysis of the deposited data

How the results depend on the processing

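The count of members called between the luminal gates (25) was 16 with quantile normalization, 15 with only the groups compared and 11 with Sca-1+ luminal replicate 3 as the sole library of its group. Leaving out 1 library at a time gave 15 to 31, the lowest without Sca-1+ replicate 2. For basal against Sca-1- luminal libraries (19) it gave 13 to 24, for basal against Sca-1+ luminal (9) it gave 3 to 18, and for stromal libraries (21) it gave 7 to 29. The other settings kept each count within 1.5 times. The share of all genes called in each setting is not given beside these counts, so no change particular to the members is shown. Of the called members, 6 of 25, 13 of 19, 2 of 9 and 6 of 21 kept their call in every setting, in the same order of comparisons. The 6 of 25 include Fut9 and Gcnt1, and the 13 of 19 include Fut9. Mgat3 kept its call between the luminal gates in the 16 of 17 settings in which it passed the filter. Fut9, Gcnt1 and Mgat3 passed the filter only through the group where they are high, so their kept calls support nothing. Signs turned for members that were not called: between the luminal gates, B3gnt2 was at -0.09, Mgat2 at -0.05 and St3gal2 at -0.04 with Sca-1+ replicate 3 alone, and Mgat2 at -0.04 under median-of-ratios scaling. The cause of these changes was not tested. No paired analysis was possible because the labels give no replicate numbers, and those used here follow the order of listing. With 2 or 3 libraries a group, a member that missed the threshold is not shown to be unchanged, and levels far below 1 FPKM rest on few fragments.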
